A study of Rattus norvegicus with 12 samples.

Results

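The genes Gad1, Gad2, Slc32a1, Th, Calb1 and Calb2 mark the inhibitory and dopaminergic interneurons of the retina. They were taken by Ensembl identifier from a table of 32883 rat genes, and all 6 were present in it. The rule names identifiers and sets no threshold on their values, although the genes were chosen with earlier results of these data known. All 6 also passed the filter for low values, which asked for 1 TPM or more in 3 or more of the 12 libraries and left 15916 genes to test. TPM is a read count divided by gene length and scaled to the same total in every library, so levels can be set beside each other between genes. The identifiers are ENSRNOG00000000007 for Gad1, ENSRNOG00000018200 for Gad2, ENSRNOG00000015393 for Slc32a1, ENSRNOG00000020410 for Th, ENSRNOG00000007456 for Calb1 and ENSRNOG00000016977 for Calb2. All 6 symbols occur in the RefSeq annotation used here, but that annotation holds 0 Ensembl identifiers, so the pairing of symbol and identifier was not checked against it. For the same reason the labelled tissue was not checked against markers of other retinal cells.

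Amacrine and horizontal cells are the interneurons that carry lateral signals across the retina between photoreceptors, bipolar cells and ganglion cells. Many amacrine cells release GABA, others release glycine, and a sparse type also makes dopamine, which adjusts the retina to bright light. Gad1 and Gad2 encode the glutamate decarboxylases that make GABA, and Slc32a1 encodes the transporter that loads GABA and glycine into synaptic vesicles. Th encodes tyrosine hydroxylase, the rate-limiting enzyme of dopamine synthesis. Calb1 encodes calbindin, a calcium-binding protein found in rodent horizontal cells and in some amacrine cells. Calb2 encodes calretinin, a related calcium-binding protein of amacrine cells and some ganglion cells.

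The libraries came from dissected retinas in 4 groups of 3. All rats were of the Sprague Dawley strain, wild type, and 18 days old. The groups were oxygen-induced retinopathy (OIR) with a miR-143 mimic, OIR with scrambled RNA, sham with the mimic and sham with scrambled RNA. OIR exposes newborn animals to altered oxygen, which disturbs the growth of the retinal vessels. The mimic is a synthetic copy of the microRNA miR-143, given by transfection per the labels, and the labels do not say which of its arms was given, at what dose or when. Reads recovered from the TPM values numbered 10537600 to 13175005 per library. The labels speak of triplicate biological samples without tying them to animals, so the p-values reflect only how these libraries vary, which may be technical. The column names carry separate runs of numbers for OIR and sham, and the letter L for each mimic and R for each scrambled library, and sham mimic 1 and sham scrambled 1 share a number. Whatever the runs of numbers and the letters stand for cannot be told apart from condition and transfected RNA. The labels do not say what the shared number stands for. In bulk retina, fewer interneurons, less RNA per interneuron and a larger share of RNA from other cells cannot be told apart either.

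The mature miR-143 sequences are shown because the mimic is the treatment that is set against scrambled RNA below. They are from RefSeq (GRCr8, minus strand, chr18:57371373-57371394 for the 3p arm and chr18:57371408-57371428 for the 5p arm), 5′ to 3′, with the seed, bases 2 to 8, in capitals.
rno-miR-143-3p: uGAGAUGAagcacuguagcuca
rno-miR-143-5p: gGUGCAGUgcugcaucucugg
Target sites for these seeds in the 6 transcripts were not analysed here.

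RefSeq promoters were matched by symbol for 4 of the 6 genes, and these 4 are shown because Calb1 and Calb2 had no entry. The direction in OIR did not pick them, since all 6 genes moved the same way. Each runs from 250 bases before to 50 after the gene start of that table, 5′ to 3′ on the gene's own strand, in build GRCr8, whereas the submitters' processing notes name rn6. The windows are chr3:75777202-75777501 (plus strand) for Gad1, chr17:89671468-89671767 (plus) for Gad2, chr3:167686995-167687294 (plus) for Slc32a1 and chr1:207508169-207508468 (minus) for Th. Capitals mark matches on either strand. The motifs searched were TATAAA, an element of some core promoters, then TGACG, the core of a cyclic AMP response element, then ACGTG, a core of the hypoxia response element, and its other core, spelled GCGTG.
Gad1: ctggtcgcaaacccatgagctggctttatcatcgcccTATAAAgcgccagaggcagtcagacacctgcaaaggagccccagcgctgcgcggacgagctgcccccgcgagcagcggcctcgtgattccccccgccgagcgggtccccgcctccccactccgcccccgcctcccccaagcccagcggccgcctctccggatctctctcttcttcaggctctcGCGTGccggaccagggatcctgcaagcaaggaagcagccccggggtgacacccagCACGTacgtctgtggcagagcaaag
Gad2: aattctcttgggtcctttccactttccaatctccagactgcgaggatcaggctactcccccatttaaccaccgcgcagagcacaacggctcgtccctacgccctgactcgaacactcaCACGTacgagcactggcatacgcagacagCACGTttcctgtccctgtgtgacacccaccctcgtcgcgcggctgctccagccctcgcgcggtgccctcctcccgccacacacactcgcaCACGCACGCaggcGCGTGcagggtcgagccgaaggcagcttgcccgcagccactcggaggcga
Slc32a1: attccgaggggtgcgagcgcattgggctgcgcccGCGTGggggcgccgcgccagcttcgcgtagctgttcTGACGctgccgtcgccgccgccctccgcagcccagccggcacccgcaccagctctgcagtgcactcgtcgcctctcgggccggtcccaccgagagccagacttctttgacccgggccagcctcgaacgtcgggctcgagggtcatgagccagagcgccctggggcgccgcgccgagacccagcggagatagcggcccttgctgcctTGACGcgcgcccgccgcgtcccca
Th: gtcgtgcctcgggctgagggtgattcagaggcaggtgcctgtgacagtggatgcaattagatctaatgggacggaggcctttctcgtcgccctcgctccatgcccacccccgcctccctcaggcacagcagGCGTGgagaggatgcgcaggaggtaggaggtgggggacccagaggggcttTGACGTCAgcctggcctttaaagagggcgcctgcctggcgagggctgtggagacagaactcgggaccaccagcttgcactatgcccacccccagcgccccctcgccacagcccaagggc
GCGTG was found in all 4 windows, and in 29.7% of 33469 promoters of the same length. ACGTG was found in Gad1 and Gad2 (19.25% of all promoters), TGACG in Slc32a1 and Th (21.2%), and TATAAA in Gad1 (14.2%). In Th the matches to TGACG on the plus and the minus strand overlap each other. A match is a string of letters and was not tested as a binding site.

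The order of levels was the same in OIR and in sham. Over the 6 libraries of each condition, Calb2 averaged 678 ± 115 TPM in OIR and 1152 ± 84.3 TPM in sham (SD, n = 6 each). Gad1 followed with 112 ± 28.8 TPM in OIR and 208 ± 4.76 TPM in sham. Slc32a1 averaged 78.5 ± 18.8 TPM in OIR and 110 ± 4.85 TPM in sham, and Calb1 50.03 ± 12.1 TPM in OIR and 108 ± 4.81 TPM in sham. Slc32a1 and Calb1 lay within each other's spread in sham. In OIR the libraries of Gad1 and Slc32a1 overlapped, as did those of Slc32a1 and Calb1, although within each OIR library Gad1 was above Slc32a1 and Slc32a1 above Calb1. Gad2 averaged 25.8 ± 7.17 TPM in OIR and 47.1 ± 6.28 TPM in sham, and Th was lowest with 7.02 ± 2.78 TPM in OIR and 12.5 ± 1.53 TPM in sham. Calb2 ranked 159 by mean level among the tested genes in OIR and 65 in sham. Th ranked 11313 in OIR and 9520 in sham. The reads behind a value ran from 4233 to 12036 for Calb2 and from 44 to 157 for Th, which gives Th a counting error of 7.98% to 15.1% per library. For the other 4 genes each value rested on at least 385 reads.

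**Figure D1:**
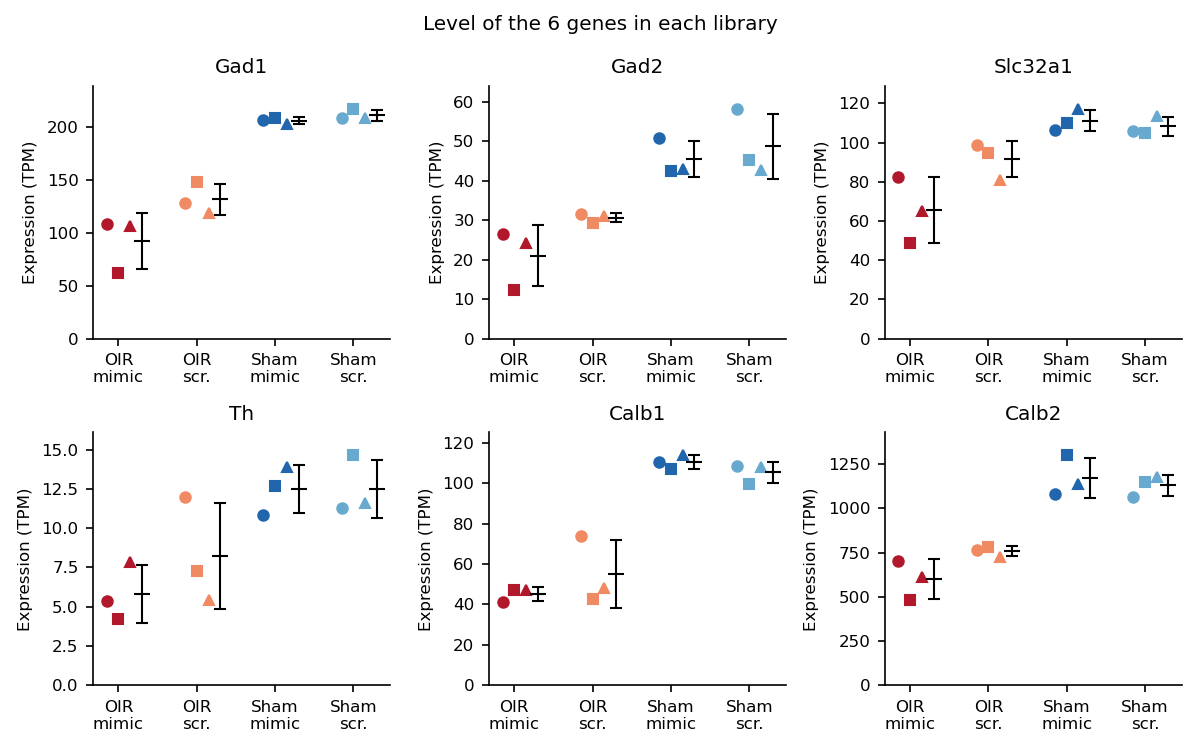
TPM of each gene (vertical axes, each from 0) in the 12 libraries by group (horizontal axes; scr. is scrambled RNA). Circles, squares and triangles are replicates 1, 2 and 3, and black marks are group mean ± SD (n = 3); the OIR libraries of every gene but Th lie below all sham libraries.

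All 6 genes fell in OIR. In the comparison of OIR with sham averaged over both transfected RNAs, all 6 were called lower, whereas 12.8% of all tested genes and 14.3% of genes with a mean of at least 10 TPM were called lower (limma on log2(TPM + 1), Benjamini-Hochberg adjusted p below 0.05 over 15916 genes). Their median log2 fold change was -0.85, against 0.04 for all tested genes. For 5 of the 6, Th being the exception, the ranges of the 6 OIR and the 6 sham libraries did not overlap, as for 7.89% of tested genes in this direction. Taken by transfected RNA, all 6 were called lower with the mimic (9.77% of tested genes) and 3 with scrambled RNA (3.91%). The ranges of 3 against 3 libraries did not overlap for all 6 with the mimic (16.0% of tested genes in this direction) and for 5, again without Th, with scrambled RNA (12.9%). The 3 called with scrambled RNA were Gad1, Calb1 and Calb2.

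**Figure D2:**
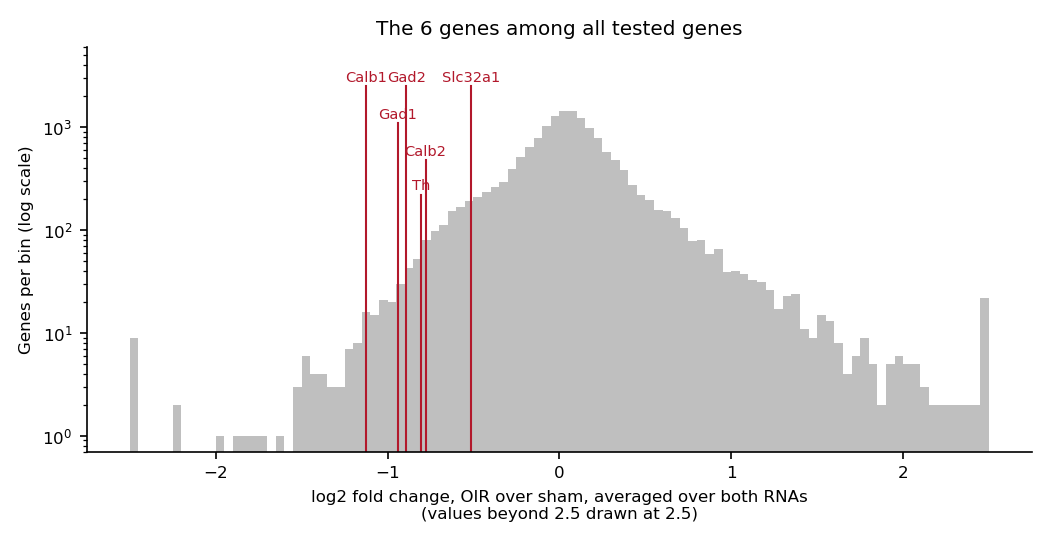
Log2 fold change of OIR over sham averaged over both transfected RNAs (horizontal axis) for all 15916 tested genes in bins (grey; vertical axis, number of genes on a log scale), with red lines for the 6 interneuron genes. The 6 lines stand in the lower tail, from -1.12 for Calb1 to -0.51 for Slc32a1.

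Both enzymes of GABA synthesis fell. Gad1 had 108, 61.6 and 106 TPM in OIR mimic libraries 1 to 3 and 128, 148 and 119 TPM in OIR scrambled libraries. Its levels were 206, 209 and 202 TPM in sham mimic libraries and 208, 217 and 208 TPM in sham scrambled libraries. The 6 sham values lay within a narrow band, and every OIR value was below it. Averaged over both RNAs Gad1 fell by 0.94 on the log2 scale (SE 0.12, limma adjusted p = 0.000258), and its OIR mean was 53.6% of the sham mean. With the mimic the log2 fold change was -1.20 (SE 0.17, limma adjusted p = 0.00117). With scrambled RNA it was -0.69 (SE 0.17, limma adjusted p = 0.0284). The call with scrambled RNA was lost when OIR scrambled replicate 1 or 3 or any sham scrambled library was left out, with limma adjusted p between 0.0674 and 0.108 and log2 fold changes between -0.70 and -0.61. The coefficient of variation of Gad1 was 25.8% over the OIR libraries and 2.29% over the sham libraries.

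Gad2 had 26.6, 12.3 and 24.2 TPM in OIR mimic libraries and 31.5, 29.3 and 31.1 TPM in OIR scrambled libraries. It had 50.8, 42.6 and 43.1 TPM in sham mimic libraries and 58.2, 45.3 and 42.6 TPM in sham scrambled libraries. The lowest value by far was OIR mimic replicate 2, and no OIR value reached the sham range. The averaged log2 fold change was -0.89 (SE 0.16, limma adjusted p = 0.0017), which left the OIR mean at 54.8% of the sham mean. With the mimic it was -1.14 (SE 0.23, limma adjusted p = 0.00545). With scrambled RNA the value of -0.64 (SE 0.23) missed the threshold at a limma adjusted p of 0.0946, but it passed without OIR mimic replicate 2 (same log2 fold change, since that library is in neither group, limma adjusted p = 0.00551). The sham libraries with the highest Gad2 were replicate 1 with each RNA, whose column names share a number.

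The vesicular transporter had the smallest estimate of the 6. Slc32a1 had 82.4, 48.8 and 65.02 TPM in OIR mimic libraries and 99.0, 94.9 and 81.1 TPM in OIR scrambled libraries. It had 107, 110 and 117 TPM in sham mimic libraries and 106, 105 and 114 TPM in sham scrambled libraries. All OIR values stood below all sham values, and the OIR mimic and OIR scrambled values overlapped. Averaged over both RNAs Slc32a1 fell by 0.51 on the log2 scale (SE 0.10, limma adjusted p = 0.00325), to 71.6% of the sham mean. With the mimic the log2 fold change was -0.79 (SE 0.15, limma adjusted p = 0.00394). With scrambled RNA it was -0.24 with a 95% interval of -0.56 to 0.08 (limma adjusted p = 0.337), and -0.16 without OIR scrambled replicate 3 (limma adjusted p = 0.655).

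Th, at the lowest level of the 6, had 5.36, 4.21 and 7.82 TPM in OIR mimic libraries and 12.004, 7.27 and 5.44 TPM in OIR scrambled libraries. It had 10.8, 12.7 and 13.9 TPM in sham mimic libraries and 11.3, 14.6 and 11.6 TPM in sham scrambled libraries. OIR scrambled replicate 1 lay inside the sham range, and the other 5 OIR libraries lay below it. The averaged log2 fold change was -0.81 (SE 0.18, limma adjusted p = 0.00501), and the OIR mean was 56.2% of the sham mean. With the mimic it was -1.01 (SE 0.25, limma adjusted p = 0.015), a call that was lost without OIR mimic replicate 2 (-0.84, limma adjusted p = 0.0522) or sham mimic replicate 3 (-0.94, limma adjusted p = 0.0579). With scrambled RNA it was -0.60 (SE 0.25, limma adjusted p = 0.151) and passed only when OIR scrambled replicate 1 was left out among the fits without 1 library (-0.88, limma adjusted p = 0.0344). Without OIR scrambled replicate 3 it was -0.37 (limma adjusted p = 0.448).

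The calcium-binding proteins had the smallest adjusted p-values of the 6. Calb1 had 41.1, 47.1 and 47.1 TPM in OIR mimic libraries and 74.04, 42.4 and 48.4 TPM in OIR scrambled libraries. It had 111, 107 and 114 TPM in sham mimic libraries and 109, 99.5 and 108 TPM in sham scrambled libraries. Of the 6 OIR libraries 5 lay within a narrow band, with OIR scrambled replicate 1 alone between that band and the sham values. Calb1 fell by 1.12 on the log2 scale averaged over both RNAs (SE 0.11, limma adjusted p = 5.35e-05), to 46.3% of the sham mean. With the mimic the log2 fold change was -1.28 (SE 0.16, limma adjusted p = 0.00053). With scrambled RNA it was -0.97 (SE 0.16, limma adjusted p = 0.00404), and -1.20 without OIR scrambled replicate 1. In the averaged comparison 0.408% of tested genes had a lower log2 fold change than Calb1.

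Calb2 had 705, 479 and 611 TPM in OIR mimic libraries and 767, 783 and 727 TPM in OIR scrambled libraries. It had 1082, 1300 and 1136 TPM in sham mimic libraries and 1064, 1149 and 1180 TPM in sham scrambled libraries. Calretinin RNA was thus among the abundant transcripts of every library, and the condition ranges stood well apart. The averaged log2 fold change was -0.78 (SE 0.08, limma adjusted p = 8.61e-05), and the OIR mean was 58.9% of the sham mean. With the mimic it was -0.98 (SE 0.12, limma adjusted p = 0.00053). With scrambled RNA it was -0.57 (SE 0.12, limma adjusted p = 0.0123). Calb1 and Calb2 were called with each RNA in every fit that left out 1 library.

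**Figure D3:**
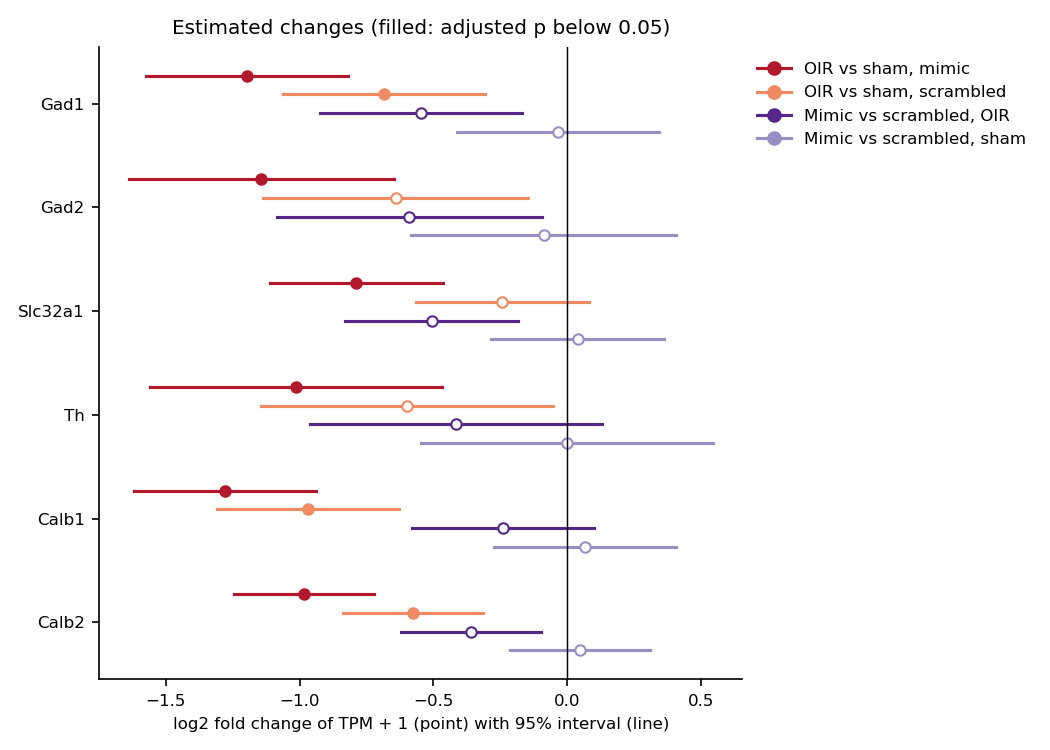
Log2 fold change of TPM + 1 (points) with its 95% interval (lines, horizontal axis) for each gene in 4 comparisons; filled points passed the adjusted threshold of 0.05. OIR against sham is below 0 for each gene with either RNA, while mimic against scrambled RNA has open points throughout.

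Ratios between genes do not depend on how libraries are scaled. Between OIR and sham, 2 of 15 passed the adjusted threshold, and both include Slc32a1. All 15 ratios between 2 of the 6 genes were compared between OIR and sham by exact permutation within each transfected RNA (two-sided, 400 divisions, smallest possible p = 0.005), a test added after the levels were seen. At that smallest p no ratio could pass the adjustment alone, so the number passing depends partly on this floor. The ratio of Gad1 to Slc32a1 was 1.42 ± 0.16 in OIR and 1.90 ± 0.12 in sham (SD, n = 6 each), with ranges that did not overlap (exact p = 0.005, Benjamini-Hochberg adjusted p = 0.0375 over the 15 ratios). It was 1.31, 1.26 and 1.63 in OIR mimic libraries, 1.29, 1.56 and 1.46 in OIR scrambled libraries, 1.93, 1.90 and 1.73 in sham mimic libraries and 1.96, 2.06 and 1.83 in sham scrambled libraries. The difference was -0.41 on the log2 scale with the mimic and -0.45 with scrambled RNA.

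The ratio of Slc32a1 to Calb1 was 1.61 ± 0.45 in OIR and 1.02 ± 0.039 in sham (SD, n = 6 each; exact p = 0.005, adjusted p = 0.0375), higher in 5 of 6 OIR libraries than in any sham library. The exception was OIR mimic replicate 2, at 1.04. Both ratios lost the adjusted call when any 1 sham library was left out (exact adjusted p 0.05 to 0.1). Both kept it when any 1 OIR library was left out. Either omission lowers the number of divisions. The other 13 ratios did not pass. Among these, Gad1 to Gad2 was 4.40 ± 0.52 in OIR and 4.48 ± 0.54 in sham (exact p = 0.815, adjusted p = 0.905). Calb2 to Slc32a1 was 8.78 ± 0.76 in OIR and 10.5 ± 0.76 in sham (exact p = 0.01, adjusted p = 0.05).

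**Figure D4:**
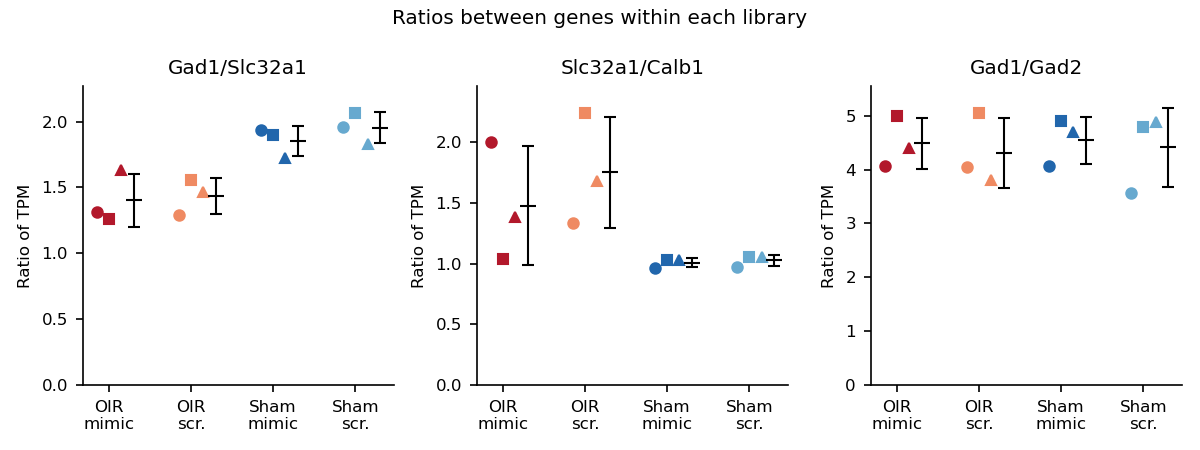
Ratio of TPM between 2 genes within each library (vertical axes, each from 0) by group (horizontal axes); symbols are replicates 1 to 3 and black marks are group mean ± SD (n = 3). Gad1/Slc32a1 is below all sham libraries in every OIR library, Slc32a1/Calb1 is above them in 5 of 6, and Gad1/Gad2 overlaps.

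The OIR libraries differed among themselves. Set against the sham mean with the same RNA, OIR mimic replicate 2 held 27.04% to 43.9% of the sham level over the 6 genes, and it was the lowest OIR library for 5 of them. Calb1 was the exception, at 42.6% in that library. OIR scrambled replicate 1 held 60.5% to 96.1% and was the highest for 4 genes, with Th nearly at the sham mean and Gad1 at the low end of its values. OIR scrambled replicate 2 combined 87.7% for Slc32a1 with 40.2% for Calb1. Together the 6 genes took 0.0653% to 0.111% of all TPM in OIR libraries and 0.156% to 0.178% in sham libraries.

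**Figure D5:**
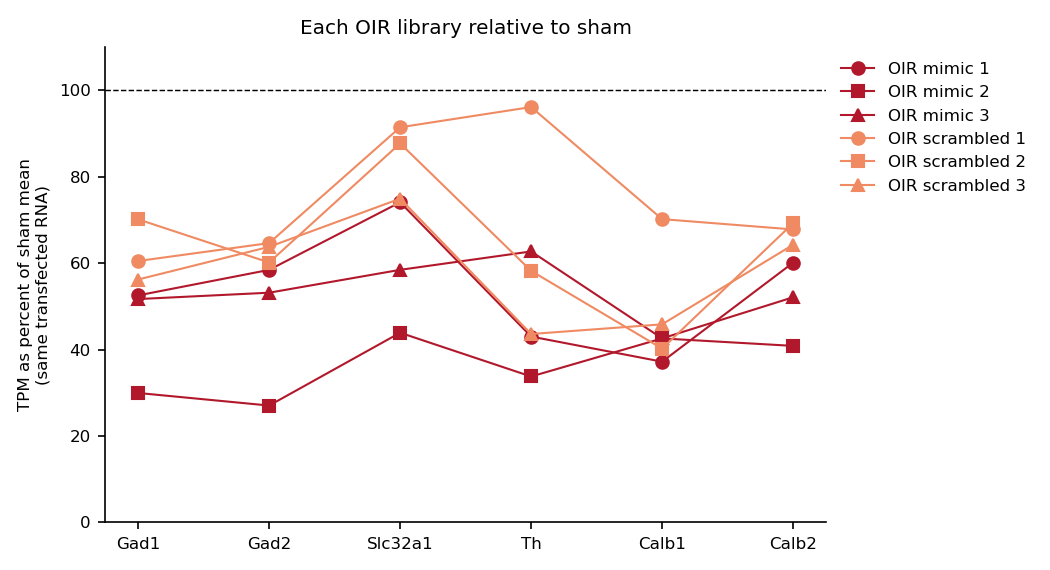
TPM of each gene (horizontal axis) in each of the 6 OIR libraries as a percent of the mean of the 3 sham libraries with the same RNA (vertical axis; dashed line, 100). OIR mimic replicate 2 is lowest for all genes but Calb1, and OIR scrambled replicate 1 is nearest to the dashed line for Gad2, Slc32a1, Th and Calb1.

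Likeness between the genes was described by correlation of log2(TPM + 1). Over the 12 libraries, which share the split into OIR and sham and the scaling to a common total, Pearson r for the 15 pairs ran from 0.754 (Slc32a1 and Calb1) to 0.974 (Gad1 and Calb2). Spearman rho ran from 0.65 to 0.951. With the group means subtracted, 11 of 15 pairs stayed above 0. Gad1, Gad2, Slc32a1 and Calb2 then correlated with each other at 0.584 to 0.856. Calb1 was near or below 0 with these 4, at -0.268 with Gad1, -0.210 with Calb2, -0.0465 with Gad2 and -0.0031 with Slc32a1. It reached 0.57 with Th. The sham libraries alone gave another picture, with 7 of 15 pairs above 0 and a median of -0.23. There Gad1 and Slc32a1 correlated at -0.625, Gad2 and Slc32a1 at -0.603, Gad2 and Calb2 at -0.756 and Gad1 and Gad2 at -0.23. Calb1 ran from -0.993 with Gad1 to 0.546 with Slc32a1 in these sham libraries, the lowest and highest of the 15 pairs. In the 6 OIR libraries alone, the deviations of Slc32a1 and Calb2 correlated at 0.97, and at 0.943 without OIR mimic replicate 2. In the same libraries those of Th and Calb1 correlated at 0.668, and at 0.256 without OIR scrambled replicate 1. The likeness among the 6 is not particular to them. Calb2 was the closest member to Gad1, and 78 of the 15910 other tested genes had a higher r with Gad1. For Calb1 418 other genes had a higher r than its closest member, and for Th 197.

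The effect of the mimic was examined next. In OIR, each of the 6 genes had a negative estimate with the mimic against scrambled RNA, and 0 of 6 passed (limma; 0% of tested genes passed, and voom on recovered reads also called 0 of the 6). At an unadjusted limma p below 0.05 there were 4 of the 6 and 9.37% of all tested genes. The median log2 fold change of the 6 was -0.46 against -0.05 for all tested genes. The ranges did not overlap for Gad1, Gad2 and Calb2, as for 9.01% of tested genes in this direction. Gad1 averaged 91.99 ± 26.3 TPM in OIR mimic and 131 ± 15.04 TPM in OIR scrambled libraries (SD, n = 3 each), a log2 fold change of -0.55 with a 95% interval of -0.93 to -0.17 and a limma adjusted p of 0.462. Slc32a1 averaged 65.4 ± 16.8 TPM in OIR mimic and 91.7 ± 9.38 TPM in OIR scrambled libraries, a log2 fold change of -0.51 (95% interval -0.83 to -0.18, limma adjusted p = 0.462). Th and Calb1 had estimates of -0.41 and -0.24 with intervals that include 0. Single libraries moved these estimates. Without OIR mimic replicate 2 the Gad1 estimate was -0.28, the Gad2 estimate was -0.26 against -0.59 with all libraries, and the Slc32a1 estimate was -0.32 against -0.51. That of Calb2 was then -0.21 against -0.36, that of Th -0.24, and that of Calb1 -0.27. Without OIR scrambled replicate 1 the Calb1 estimate was -0.0087 and the Th estimate -0.14. Calb1 was at -0.40 without OIR scrambled replicate 2, and Th at -0.64 without OIR scrambled replicate 3.

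In sham retinas the mimic groups lay on top of the scrambled groups. None of the 6 passed (limma, 0 of 6, with 0% of tested genes passing, 0 of the 6 and 2.09% of tested genes at an unadjusted p below 0.05, and 0 of 6 by voom on recovered reads). The ranges overlapped for all 6. For 3.92% of tested genes every mimic library lay below every scrambled library. Estimates ran from -0.09 for Gad2 to 0.07 for Calb1. The 95% interval of Calb2 was -0.21 to 0.31, that of Gad1 -0.41 to 0.34 and that of Th -0.54 to 0.55, so moderate changes in either direction were not detectable for these genes. The interaction, a test of unequal mimic effects in OIR and sham, passed for 0 of 6 (limma; 0% of tested genes, with 2 of the 6 and 3.7% of tested genes at an unadjusted p below 0.05, and 0 of 6 by voom). Its estimates ran from -0.55 for Slc32a1 (95% interval -1.002 to -0.09) to -0.31 for Calb1 (-0.79 to 0.17). Without OIR mimic replicate 2 they ran from -0.35 for Slc32a1 to -0.17 for Gad2. Without OIR scrambled replicate 1 that of Calb1 was -0.08 and that of Th -0.14, against -0.42 with all libraries. Calb1 was at -0.47 without OIR scrambled replicate 2, and Th at -0.64 without OIR scrambled replicate 3. The larger OIR effect with the mimic than with scrambled RNA is therefore not shown to be a difference between the transfected RNAs.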

How the data were processed

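RNA-seq of 12 libraries of rat retina was read from 1 deposited table. Per the labels' protocols, RNA from dissected retinas was sequenced as single-end reads, and the text speaks of miRNA libraries although Ensembl genes are listed. The authors deposited TPM values. FastQC, TopHat, Cufflinks, Cuffdiff and rn6 appear in the submitters' processing notes, without roles or versions. Which tool made the TPM is not given. Titles above the table pair samples with columns, and 0 columns were left over. Condition tags are missing for OIR mimic replicate 1 and OIR scrambled replicate 3, which titles place.

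Genes reaching 1 TPM in 3 libraries or more were fitted as log2(TPM + 1) with limma 3.58.1 in R 4.3.3 (4 group means, trend and robust eBayes, Benjamini-Hochberg adjustment over 15916 genes, threshold 0.05). Fold changes on this scale understate those of low genes, such as Th. Whole reads were recovered from the TPM values with a tolerance of 0.02. They give depth and counting error and were used for voom. The read recovery and the main limma fit were each run on simulated data, with outcomes not given here, and voom was not. The genes and tests were chosen with earlier results of these data known. The genes described are the 6 given by identifier. Lists of related genes and cell markers by symbol were not used, since identifiers could not be matched to symbols. Alternatives were other pseudocounts, filters, scalings, weights, fits of 2 groups, a replicate block, voom on recovered reads and leaving out libraries. Leaving out both sham libraries with a shared number, and each library for the ratios, was added after seeing the data, as was the test of ratios.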

Additional observations from a re-analysis of the deposited data

Results flagged for a closer look

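Calb1 in OIR scrambled replicate 1, at 74.04 TPM, stood apart from the other 5 OIR libraries, which lay between 41.1 and 48.4 TPM. The gap to the nearest of them took 78.1% of the whole range of the 6, above the critical value for 6 samples. This was 1 of 12 sets of 6 libraries examined, and chance flags about 1 in 20. Each set pools both transfected RNAs, whereas the critical value and this rate assume 1 group, so they apply only roughly. OIR scrambled replicate 1 also had the highest Gad2, Slc32a1 and Th of the 6 OIR libraries, and it was next to the highest for Gad1 and Calb2. Without it the log2 fold change of Calb1 in OIR against sham with scrambled RNA was -1.20, against -0.97 with all libraries.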

How the results depend on the processing

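All 888 values of the 6 genes over the 6 comparisons and the alternatives run were compared with those reported, and 871 kept their side of the threshold. For OIR against sham these were 136 of 150 with scrambled RNA, 148 of 150 with the mimic and 144 of 144 averaged. The mimic comparisons and the interaction called 0 tested genes as reported, so most of their values could hardly change side. In the 3 comparisons of OIR with sham every value was negative, and in the averaged comparison all 6 genes were called under each of 24 alternatives. Over all genes the averaged comparison called 4813 as reported. The alternatives ran from 3991 without both untagged libraries to 6536 with arrayWeights. With scrambled RNA the number called was 3 as reported, 5 with arrayWeights and 2 to 4 when 1 library was left out. The calls over all genes moved too, with 1704 as reported, 3322 with arrayWeights and 806 to 2175 when 1 library was left out. With median-ratio scaling or quantile normalisation 4 of the 6 were called, because Gad2 passed (limma adjusted p 0.0434 and 0.0263). Over all genes these settings called 1958 and 2133. With only the libraries compared 4 of the 6 were also called (Gad2 at 0.0216), among 1310 genes in all. Without both untagged libraries, or without both sham libraries of the shared number, 2 were called, because Gad1 was lost (0.0828 and 0.101). Over all genes the calls then fell to 931 and 735. With the mimic 5 to 6 of the 6 were called when 1 library was left out. Over all genes the calls were then 2041 to 3278, against 3108 as reported. For mimic against scrambled RNA in OIR 0 of the 6 were called as reported and 1 without both untagged libraries. There Slc32a1 passed (log2 fold change -0.77, limma adjusted p 0.0466) among 28 genes in all. The causes were not tested. With the replicate block 3 and 6 of the 6 were called, as reported, for OIR with scrambled RNA and with the mimic. Over all genes the block called 1799 and 3300, against 1704 and 3108 as reported. Gad1 with scrambled RNA had a limma adjusted p of 0.0469 with the block. Deviations of same-numbered libraries correlated at -0.0481 to 0.258, above 0.1 in 5 of 18 pairs, against 3 of 36 pairs with different numbers. The highest was between sham mimic 1 and sham scrambled 1, which also share a column number. These correlations cannot decide whether same-numbered libraries were paired, because the labels give no pairing to set them against. The main fit was planned without the replicate numbers and treated all libraries as independent, with the block as an alternative. The correlation of 1 pair cannot decide whether sham mimic 1 and sham scrambled 1 were paired, and the labels do not say. For the Gad1 to Slc32a1 ratio, leaving out 1 library gave differences of -0.48 to -0.39 and exact adjusted p up to 0.075. For Slc32a1 to Calb1 they were 0.49 to 0.73, with exact adjusted p up to 0.1. Depth limits Th most.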
